A study of Mus musculus with 15 samples.

Results

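Histone genes were followed in kidneys of infant and juvenile mice with free or restricted access to water. A probe of the Illumina MouseWG-6 array was counted as a histone probe if its older symbol began with Hist1h, Hist2h, Hist3h, Hist4h, H1f, H2af or H3f, or if its current symbol began with H1f, H1-, H2ac, H2bc, H2az, H3c, H3f or H4c. The rule gave 112 probes of 74 genes among the 45281 probes of the array, and 11 of these genes came in through an older symbol. A probe was tested if its detection p was under 0.05 in at least 3 of the 15 arrays, which left 70 histone probes of 50 genes among 19027 tested probes. Of these, 56 probes of 40 genes belonged to replication-dependent histone genes and 14 probes of 10 genes to replacement variants. All mice were male C57BL/6 mice on an AIN-93G diet, assigned at 3 weeks of age to free drinking (CON) or to a water bottle offered for 15 minutes a day (RES). The groups were RES 4W (7 weeks old after 4 weeks of restriction, 4 arrays), CON 4W (7 weeks old, 3 arrays), RES 1W (4 weeks old after 1 week of restriction, 4 arrays) and CON 1W (4 weeks old, 4 arrays). Restricted mice were 4 weeks old after 1 week and 7 weeks old after 4 weeks, so age and length of restriction cannot be told apart. The labels list more animals than arrays in each group and do not say in words that each array is a separate mouse, so the p-values measure the spread between these arrays.

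Histones are the proteins around which DNA is wound. The core histones H2A, H2B, H3 and H4 form the nucleosome, and the linker histone H1 sits on the DNA between nucleosomes. Replication-dependent histone genes lie in clusters, lack introns and are transcribed mainly in S phase, when newly copied DNA has to be packed. Their mRNAs end in a stem-loop instead of a poly(A) tail, although polyadenylated forms are known. Replacement variants, such as H2A.Z, H3.3 and macroH2A, are made through the cell cycle from ordinary polyadenylated mRNAs and are also made in cells that no longer divide. In the young kidney, dividing cells are known to become fewer as the tubules mature. The RNA was amplified with a kit whose first strand is primed on the poly(A) tail, so the arrays read mainly the polyadenylated forms. Histone paralogs are nearly identical in their coding sequence, so a probe may read more than the gene it is named for; the probe sequences were not used here.

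The deposited intensities are given below as normalized log2 levels, on which a difference of 1 is a 2-fold change. Values are means ± SD of a group, and fold changes are given with the SE of the linear model fitted with limma to all 15 arrays. A probe was called if its p adjusted over all tested probes (Benjamini-Hochberg) was under 0.05. Of the replication-dependent probes tested, 19 were of H2A genes, 13 of H2B, 13 of H4, 8 of H3 and 3 of H1. The 14 replacement probes read H2A variants (11 probes), H3.3 (2 probes) and the linker histone gene H1f10 (1 probe). The 42 histone probes that were not tested included every probe of the testis-type genes H1f6, H1f7, H1f8, H2ac1 and H2bc1, and of the replication-dependent genes H1f1, H1f3, H1f4, H2ac4, H2ac6, H2ac8, H2bc3, H2bc8, H3c1, H3c3, H3c8 and H4c2.

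RES 4W replicate 1 stood apart from its group. Its mean correlation with the other RES 4W arrays was 0.978, against 0.989 to 0.992 for the other arrays with their own groups, and the array nearest to it was CON 4W replicate 3. Results for RES 4W are given with all arrays unless stated. Many counts of called probes, and some single genes, are also given without RES 4W replicate 1. Of 9 kidney epithelial markers, 8 were tested, and 2 of the 8 were higher after restriction at each age: Aqp2, the collecting duct water channel (log2 fold change 1.46 in RES 1W and 2.11 in RES 4W, each against its control), with Slc12a1 in RES 1W (0.56) and Slc5a2 in RES 4W (0.96). Among all tested probes, 1.42% were higher in RES 1W and 3.63% in RES 4W, each against its control. The 8 epithelial markers had summed levels on the linear scale of 64393 to 67522 in RES 4W, 64736 to 67269 in CON 4W, 63916 to 69904 in RES 1W and 62105 to 71079 in CON 1W, while none of 5 adrenal cortex markers passed the filter. Slide and scan batches are not given in the sources used here.

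The first question was how the histone genes differed between juvenile and infant kidneys under free drinking. Of the 56 replication-dependent probes, 13 (23.2%) changed in CON 4W against CON 1W, where 2.97% of all tested probes were called. In 11 of them the level was lower in CON 4W (19.6%, against 1.79% of all probes) and in 2 it was higher (3.57%, against 1.18%). Without overlap of the groups, 13 were lower (8.94% of all probes were) and 9 higher (7.74%). The lower probes were almost all of 1 kind: 10 were H2A probes of the histone cluster on chromosome 13, and the other was H3c4, an H3 gene of the same chromosome. None of the 14 replacement probes was called, and 3 of them had an unadjusted p under 0.05 in limma. At a background of 2.97%, a count of 0 among 14 probes carries little information.

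**Figure D1:**
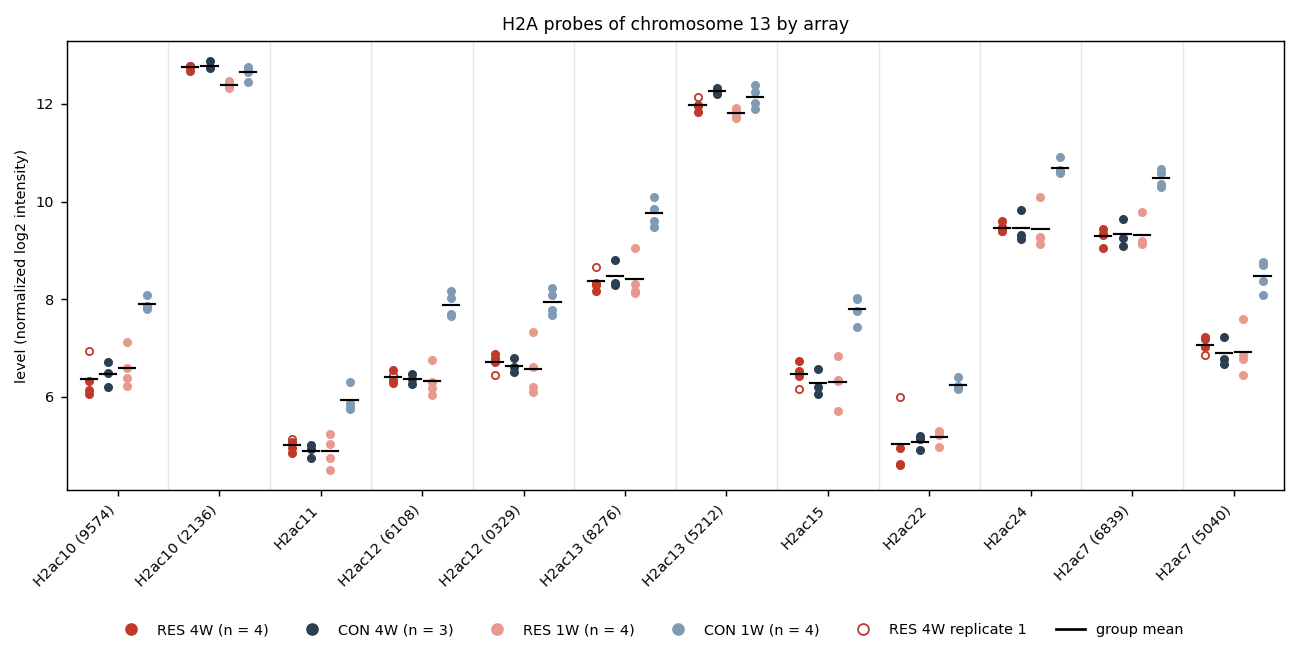
Normalized log2 level (y axis) of the 12 tested H2A probes of chromosome 13 in each array (points), with the mean of each group (line). The last digits of the probe number are given where a gene has several probes. The open circle is RES 4W replicate 1. In 10 of the 12 probes every CON 1W array lies above every other array.

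The chromosome 13 H2A genes encode the canonical H2A proteins that pair with H2B in the nucleosome. H2ac15 had levels of 6.17, 6.74, 6.44 and 6.52 in RES 4W, 6.07, 6.21 and 6.57 in CON 4W, 5.71, 6.85, 6.33 and 6.34 in RES 1W, and 7.75, 7.44, 8.03 and 8.01 in CON 1W kidneys. H2ac7 read 9.31, 9.45, 9.34 and 9.05 in RES 4W, 9.10, 9.25 and 9.64 in CON 4W, 9.12, 9.79, 9.14 and 9.19 in RES 1W, and 10.37, 10.30, 10.67 and 10.60 in CON 1W kidneys. H2ac24 read 9.41, 9.60, 9.48 and 9.39 in RES 4W, 9.23, 9.31 and 9.83 in CON 4W, 9.12, 10.10, 9.28 and 9.26 in RES 1W, and 10.62, 10.58, 10.92 and 10.64 in CON 1W. In all 3 genes each of the 4 CON 1W arrays was above each of the 11 other arrays, and the other 3 groups overlapped. For H2ac12, the levels were 6.44, 6.88, 6.80 and 6.71 in RES 4W, 6.51, 6.61 and 6.80 in CON 4W, 6.11, 7.33, 6.21 and 6.61 in RES 1W, and 7.78, 7.67, 8.23 and 8.08 in CON 1W. H2ac11, a dimmer probe, had 5.15, 5.08, 4.96 and 4.85 in RES 4W, 4.75, 4.92 and 5.01 in CON 4W, 5.25, 4.74, 5.04 and 4.50 in RES 1W, and 5.75, 5.88, 5.80 and 6.30 in CON 1W. The levels of H2ac22 were 5.99, 4.96, 4.60 and 4.62 in RES 4W, 5.19, 4.92 and 5.14 in CON 4W, 5.31, 5.21, 5.24 and 4.98 in RES 1W, and 6.16, 6.22, 6.42 and 6.18 in CON 1W. The order was the same in these 3 genes, with RES 4W replicate 1 the nearest to the CON 1W arrays in H2ac22. In H2ac11 the probe was detected in 2 of 3 CON 4W and 2 of 4 RES 1W arrays.

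In CON 4W against CON 1W the log2 fold change was -1.52 ± 0.22 for H2ac15 (adjusted p = 0.00097 in limma), -1.15 ± 0.17 for H2ac7 (adjusted p = 0.00118) and -1.23 ± 0.20 for H2ac24 (adjusted p = 0.00215). Over all 10 probes of 8 genes the log2 fold changes lay between -1.59 and -1.04, which is 2.05-fold to 3.00-fold lower in CON 4W, with adjusted p between 5.4e-05 and 0.0145. The call of H2ac22 was lost without CON 4W replicate 2, and the 9 other probes kept theirs in every fit with 1 array left out. The smallest adjusted p belonged to the dimmer probe of H2ac12 (ILMN_1246108), at -1.51 ± 0.16. Over all 56 replication-dependent probes, 11 had every CON 1W array above every array of the other 3 groups, and 0 of the 14 replacement probes did, where 0.883% of all tested probes (168) did. The 10 H2A probes, which were chosen here for being lower than CON 1W, were among them.

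The same 12 probes held 2 exceptions, both second probes of genes whose other probe was lower. H2ac10 was read by a bright probe (ILMN_1252136) with means of 12.79 ± 0.08 in CON 4W (n = 3) and 12.65 ± 0.14 in CON 1W (n = 4), and by a dimmer one (ILMN_1219574) with 6.47 ± 0.26 and 7.91 ± 0.13 in the same groups. For the bright probe the log2 fold change was 0.14 ± 0.10 (adjusted p = 0.516 in limma), and for the dimmer one -1.43 ± 0.22 (adjusted p = 0.00144). H2ac13 differed in the same way, with 0.13 ± 0.12 for the bright probe (ILMN_2745212) and -1.29 ± 0.21 for the dimmer one (ILMN_1238276). The probes of H2ac7 and H2ac12, 2 each, all fell. Which transcripts each probe reads was not tested.

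The H2A probes of the other cluster, on chromosome 3, were not lower. Of these 7 probes of 4 genes, 0 were lower in CON 4W (3 of the 7 probes read H2ac18), and the median log2 fold change was 0.32, against -1.26 over the 12 probes of chromosome 13 and -0.00 over all tested probes. The dimmer probe of H2ac20 (ILMN_1254276) was higher, with 7.83, 8.00 and 8.19 in CON 4W, and 7.41, 7.06, 7.74 and 7.54 in CON 1W (0.57 ± 0.15, adjusted p = 0.0473 in limma). The groups did not overlap, but the call was lost when any of 12 of the 15 arrays was left out. The bright probe of H2ac20 changed by -0.06 ± 0.15.

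Outside H2A, few probes were called with age. H4c1, an H4 gene of chromosome 13, had levels of 9.68, 10.06 and 10.27 in CON 4W, and 9.35, 9.31, 9.53 and 9.66 in CON 1W and was higher in CON 4W (0.54 ± 0.14, adjusted p = 0.0421 in limma). H3c4 had levels of 4.98, 4.74 and 4.99 in CON 4W, and 5.66, 5.21, 5.84 and 5.66 in CON 1W and was lower (-0.69 ± 0.16, adjusted p = 0.0296). Neither gene's groups overlapped, and leaving out single arrays ended the call in 11 of 15 cases for H4c1 and in 6 of 15 for H3c4. H1f2, which encodes the linker histone H1.2, had 12.59 ± 0.16 in CON 4W (n = 3) and 12.17 ± 0.13 in CON 1W (n = 4) by its brighter probe, without a call (0.43 ± 0.12, adjusted p = 0.067). None of the 13 H2B probes was called, with log2 fold changes between -0.27 and 0.21.

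The second question was what a week of restricted water did to the same genes in infant mice. In RES 1W against CON 1W, 11 of the 56 replication-dependent probes were called (19.6%, against 2.81% of all tested probes), and all 11 were lower (against 1.38% lower and 1.42% higher of all probes). The 11 called probes comprised the same 10 H2A probes of chromosome 13 and H3c6, an H3 gene of that chromosome. In 19 of the 56 the RES 1W arrays lay below all CON 1W arrays (4.97% of all probes did), and in none above (5.12%). None of the 14 replacement probes was called in limma, and 1 had an unadjusted p under 0.05. The comparison shares its 4 CON 1W arrays with the comparison of ages, so the values of both stand side by side here and not as separate evidence.

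H2ac7 was 2.26-fold lower in RES 1W than in CON 1W (-1.18 ± 0.16, adjusted p = 0.000787 in limma), where CON 4W was 2.22-fold lower than CON 1W. H2ac15 was 2.83-fold lower in RES 1W (-1.50 ± 0.21, adjusted p = 0.000807), and 2.87-fold lower in CON 4W. For H2ac12 the figures were 2.59-fold in RES 1W (adjusted p = 0.00177) and 2.46-fold in CON 4W. In all 10 probes the RES 1W arrays overlapped the CON 4W arrays, a difference that was not tested. In RES 1W their log2 fold changes ran from -1.56 to -1.05, with adjusted p between 3.82e-05 and 0.0155, and in none of them did RES 1W and CON 1W overlap. RES 1W replicate 2 was the highest array of its group in 8 of the 10 probes. H2ac22 lost its call without CON 1W replicate 3 or RES 1W replicate 4 (highest adjusted p = 0.0605), and the 9 other probes kept theirs whichever array was left out.

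H3c6 had levels of 5.84, 5.68, 5.62 and 5.49 in RES 1W, and 6.35, 6.14, 6.12 and 6.34 in CON 1W, and the groups did not overlap. It was 1.49-fold lower in RES 1W (-0.58 ± 0.12, adjusted p = 0.0116 in limma), and the call was lost without RES 1W replicate 4 (adjusted p = 0.0512). The H2B probes were not called, but 7 of the 13 had every RES 1W array below every CON 1W array, against 4.97% of all tested probes. Their log2 fold changes lay between -0.34 and 0.09, with a median of -0.28. H2bc11 had the smallest adjusted p among them, with 11.15, 10.96, 11.00 and 10.98 in RES 1W, and 11.30, 11.26, 11.45 and 11.46 in CON 1W (-0.34 ± 0.12, adjusted p = 0.147). The 7 chromosome 3 H2A probes ranged from -0.37 to -0.13 with a median of -0.21, and the 13 H4 probes from -0.51 to 0.16 with a median of -0.11. Over all 56 replication-dependent probes the median was -0.28, against -0.08 over the 14 replacement probes and -0.00 over all tested probes.

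**Figure D2:**
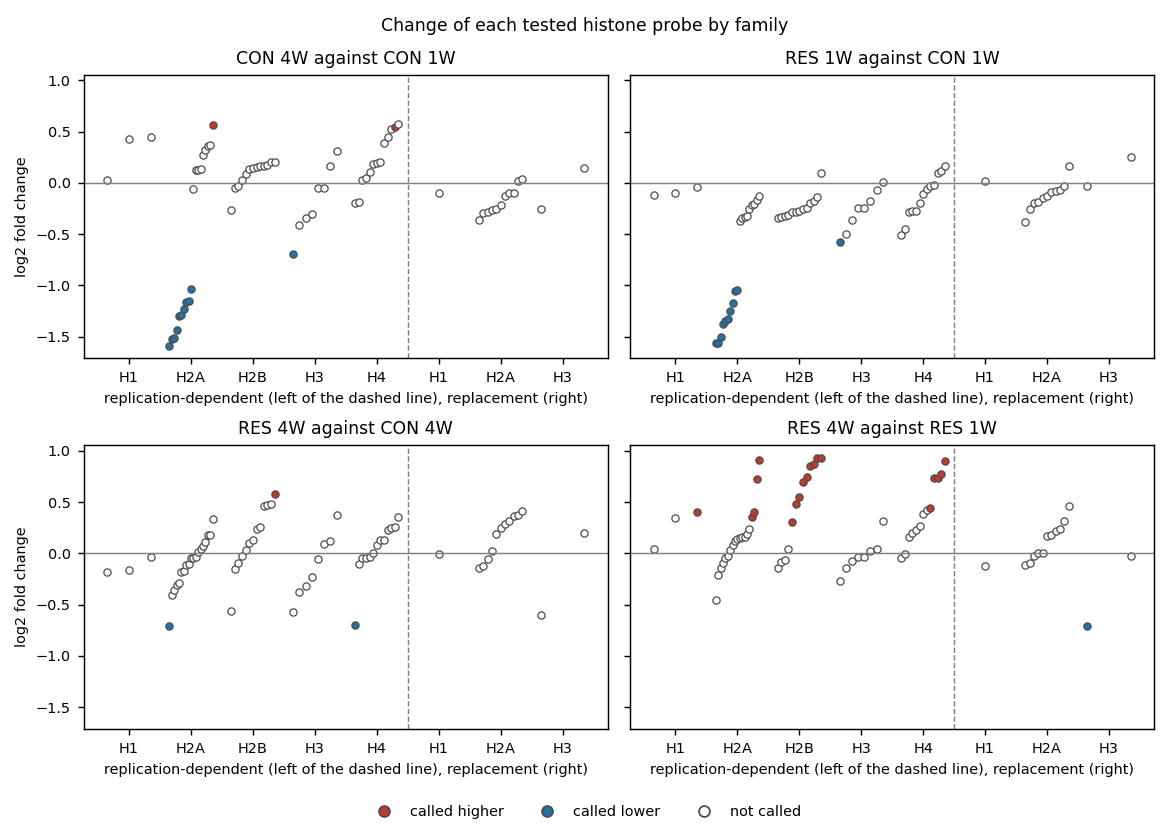
Log2 fold change (y axis) of each of the 70 tested histone probes, sorted within its family (x axis), in 4 comparisons. Replication-dependent families stand left of the dashed line and replacement families right of it, and filled points were called. The 10 H2A probes between -1.59 and -1.04 stand apart in both upper panels.

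Several of the H2A genes that fell share a promoter region with an H2B gene read in the opposite direction. RefSeq places the starts of H2ac15 and H2bc15 164 bases apart, those of H2ac7 and H2bc7 174, those of H2ac12 and H2bc12 178, and those of H2ac11 and H2bc11 249. In each pair, 1 window of 300 bases (250 before and 50 after the H2A start) covers the region between the starts. The pairs H2ac8 with H2bc8 (180 bases) and H2ac1 with H2bc1 (281) were not tested. The 4 windows are shown because both genes of each pair were measured and only the H2A gene was called in the comparisons against CON 1W. They are taken from RefSeq, build GRCm38.p6, 5′ to 3′ on the strand of the H2A gene, and capitals mark matches on either strand to CCAAT (the CCAAT box), TATAAA (the TATA box) or ATTTGCAT (the octamer, an element known from H2B promoters).
H2ac15 (chr13:21753863-21754162, minus strand): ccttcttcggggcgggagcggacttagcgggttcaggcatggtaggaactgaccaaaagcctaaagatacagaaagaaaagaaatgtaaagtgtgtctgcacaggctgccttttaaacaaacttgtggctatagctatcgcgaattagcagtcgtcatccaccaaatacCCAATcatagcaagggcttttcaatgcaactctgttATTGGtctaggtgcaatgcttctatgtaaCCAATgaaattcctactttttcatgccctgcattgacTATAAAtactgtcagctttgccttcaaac
H2ac7 (chr13:23574131-23574430, plus strand): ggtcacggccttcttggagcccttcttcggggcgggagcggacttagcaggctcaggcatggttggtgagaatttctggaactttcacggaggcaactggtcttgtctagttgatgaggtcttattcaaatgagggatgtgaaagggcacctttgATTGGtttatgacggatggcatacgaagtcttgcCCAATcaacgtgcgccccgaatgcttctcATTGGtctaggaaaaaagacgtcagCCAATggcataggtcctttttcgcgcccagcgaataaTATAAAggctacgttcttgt
H2ac12 (chr13:22035594-22035893, minus strand): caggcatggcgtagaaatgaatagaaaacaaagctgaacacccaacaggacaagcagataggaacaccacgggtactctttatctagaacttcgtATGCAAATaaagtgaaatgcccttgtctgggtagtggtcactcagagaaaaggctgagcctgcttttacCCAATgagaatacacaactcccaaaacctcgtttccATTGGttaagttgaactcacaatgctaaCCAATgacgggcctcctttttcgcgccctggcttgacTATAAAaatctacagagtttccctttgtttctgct
H2ac11 (chr13:22042900-22043199, minus strand): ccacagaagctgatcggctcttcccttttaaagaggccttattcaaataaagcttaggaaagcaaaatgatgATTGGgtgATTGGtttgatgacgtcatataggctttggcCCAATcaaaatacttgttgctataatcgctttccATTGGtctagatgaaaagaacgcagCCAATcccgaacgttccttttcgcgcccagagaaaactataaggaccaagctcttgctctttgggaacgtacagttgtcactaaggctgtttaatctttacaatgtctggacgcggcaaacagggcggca
Windows of this length were found for 46 of the 50 tested histone genes. CCAAT stood in all 12 windows of the tested replication-dependent H2A genes, in all 8 windows of 7 H2B genes and in 3 of the 11 H4 windows, against 37.4% of the 32851 RefSeq windows. TATAAA stood in 7 of 12 H2A, 3 of 8 H2B and 8 of 11 H4 windows, against 13.6%. The octamer stood in 2 of 12 H2A and 3 of 8 H2B windows, against 1.74%. Of the 9 replacement windows, 6 held CCAAT and 1 held TATAAA. The H2A genes of chromosome 3, none of which was called lower in the 2 comparisons against CON 1W, were among those with CCAAT. This match therefore does not set apart the H2A genes that fell in those comparisons.

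In all 4 pairs the H2A gene was called lower in both comparisons and its H2B partner was not. H2bc15 had levels of 9.11, 8.97, 9.26 and 9.25 in RES 4W, 8.75, 8.91 and 9.08 in CON 4W, 8.44, 8.37, 8.46 and 8.53 in RES 1W, and 8.46, 8.52, 9.09 and 9.05 in CON 1W. H2bc7 had 11.72, 12.39, 12.36 and 12.50 in RES 4W, 11.56, 11.69 and 11.75 in CON 4W, 11.45, 11.43, 11.34 and 11.28 in RES 1W, and 11.54, 11.54, 11.86 and 11.85 in CON 1W. Against CON 1W, H2bc15 changed by 0.13 ± 0.15 in CON 4W and by -0.33 ± 0.14 in RES 1W, and H2bc7 by -0.03 ± 0.16 and -0.32 ± 0.15. The log2 ratio of the H2A to the H2B probe was taken within each array and compared between groups. In CON 4W against CON 1W the ratio fell by 1.65 for H2ac15 and H2bc15, by 1.50 for H2ac12 and H2bc12, by 1.18 for H2ac11 and H2bc11 and by 1.12 for H2ac7 and H2bc7. In RES 1W against CON 1W it fell by 1.17, 1.18, 0.71 and 0.85 for the same pairs in the same order. No pair's groups overlapped in either comparison, with p = 0.0286 for each by the two-sided exact permutation test, the smallest value that this number of arrays allows, and p = 0.0508 after adjustment over the 16 tests made, which misses the threshold of 0.05. The ratios against CON 1W rest on the same arrays and H2A levels as the calls for which the pairs were shown. They restate those calls and are not separate support. Between RES 4W and CON 4W the ratios overlapped in all 4 pairs. In RES 4W against RES 1W the ratio of H2ac7 to H2bc7 fell by 0.89 without overlap, and the ratios of the other 3 pairs overlapped.

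**Figure D3:**
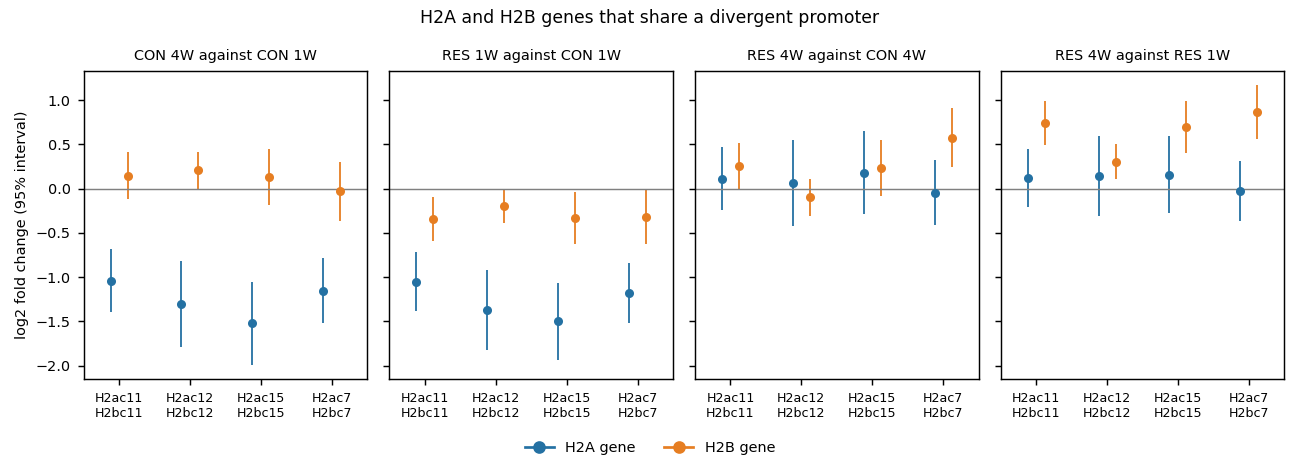
Log2 fold change (y axis, with its 95% interval from limma) of the H2A gene and the H2B gene of each pair (x axis) in 4 comparisons, each gene read from its brightest tested probe. Only the H2A genes lie near -1 or below in the 2 comparisons against CON 1W, and the H2B genes of all 4 pairs lie above 0 in RES 4W against RES 1W.

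The third question was whether restriction also moved histone genes in juvenile mice. In RES 4W against CON 4W, 3 of 56 replication-dependent probes were called (5.36%, against 6.49% of all tested probes), a share close to that of the array as a whole, and none of the 14 replacement probes. They were 1 higher probe (3.63% of all probes) and 2 lower ones (2.86%), while 4 were higher and 5 lower without overlap of the groups (7.33% and 7.36% of all probes). With all arrays, the 10 H2A probes that were lower in RES 1W changed by -0.11 to 0.18, and the 95% intervals of these changes lay within -0.57 to 0.66. Without RES 4W replicate 1, the 12 H2A probes of chromosome 13 changed by -0.36 to 0.28, with 1 called lower. The 12 include the bright probes of H2ac10 and H2ac13, which are not among the 10. The difference between the restriction effects at 4 weeks and at 1 week was called for 7 replication-dependent probes (12.5%, against 0.583% of all tested probes), and all 7 were H2A probes of chromosome 13 with a higher value at 4 weeks (0.368% of all probes). They were 2 probes each of H2ac7 and H2ac12 and 1 each of H2ac11, H2ac15 and H2ac24. For H2ac15 the difference was 1.68 ± 0.30 (adjusted p = 0.0281 in limma) and for the dimmer probe of H2ac12 1.60 ± 0.22 (adjusted p = 0.00542). Leaving out 1 array at a time gave between 1 and 21 called probes, and only that probe of H2ac12 kept its call throughout.

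The counts in juvenile mice moved with RES 4W replicate 1. Without it, 13 replication-dependent probes were called in RES 4W against CON 4W (23.2%, against 24.1% of all tested probes), a share close to that of the array as a whole. Of the 13, 6 were higher (12.8% of all tested probes were) and 7 lower (11.3%). The genes named below are therefore described as single genes. The difference between the restriction effects was then called for 21 replication-dependent probes, against 15.0% of all tested probes, and 18 of the 21 were higher (7.80% of all probes) and 3 lower (7.18%). The 5 H2B probes that were higher without this array were those of H2bc7, H2bc9, H2bc11, the bright probe of H2bc6 (ILMN_2742592) and the dimmer probe of H2bc12 (ILMN_2636781). The other higher probe was that of the H2A gene H2ac19 on chromosome 3 (0.50 without replicate 1). It read 11.16, 11.81, 11.79 and 11.83 in RES 4W, and 11.11, 11.33 and 11.49 in CON 4W. H2bc7 read 11.72, 12.39, 12.36 and 12.50 in RES 4W, and 11.56, 11.69 and 11.75 in CON 4W, with replicate 1 at the level of CON 4W and the other 3 arrays above it. Its log2 fold change was 0.57 ± 0.16 with all arrays (adjusted p = 0.0418 in limma) and 0.75 ± 0.11 without replicate 1 (adjusted p = 0.000272). H2bc6 read 11.81, 12.39, 12.48 and 12.33 in RES 4W, and 11.63, 11.85 and 11.89 in CON 4W. H2bc9 read 10.98, 11.54, 11.64 and 11.53 in RES 4W, and 10.76, 11.07 and 11.02 in CON 4W. Replicate 1 was again the lowest of RES 4W in both and lay within the range of CON 4W. H2bc6 changed by 0.46 ± 0.14 with all arrays and by 0.61 ± 0.11 without replicate 1, and H2bc9 by 0.48 ± 0.14 and 0.62 ± 0.11.

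Other histone genes were lower in RES 4W, several of them in the same 3 arrays only. H2bc4 had levels of 10.39, 9.44, 9.73 and 9.56 in RES 4W, and 10.31, 10.31 and 10.42 in CON 4W (-0.56 ± 0.17, adjusted p = 0.0542 in limma with all arrays, and -0.77 ± 0.11, adjusted p = 0.000115 without replicate 1). H4c8, an H4 gene, read 9.41, 8.38, 8.57 and 8.72 in RES 4W, and 9.28, 9.56 and 9.56 in CON 4W and was called either way (-0.70 ± 0.20, adjusted p = 0.0451, and -0.91 ± 0.15, adjusted p = 0.000416). In H2ac20, replicate 1 was level with CON 4W and the other 3 arrays were below it, at 11.55, 10.94, 11.02 and 10.97 in RES 4W, and 11.48, 11.46 and 11.63 in CON 4W. The H3 gene H3c14, whose protein is the canonical H3.2, read 7.24, 6.05, 6.22 and 6.34 in RES 4W, and 6.81, 6.96 and 7.32 in CON 4W. Without replicate 1, H2ac20 changed by -0.55 ± 0.13 (adjusted p = 0.00614) and H3c14 by -0.83 ± 0.16 (adjusted p = 0.00155), and neither was called with it. The dimmer probe of H3c14 (ILMN_3040069) went the other way, at 5.17, 5.09, 5.28 and 5.35 in RES 4W, and 4.83, 4.94 and 4.76 in CON 4W. These groups did not overlap, and that probe was not called with or without replicate 1 (0.38 with all arrays). H2ac13 read 12.14, 11.83, 11.95 and 11.98 in RES 4W, and 12.20, 12.27 and 12.33 in CON 4W by its bright probe, below CON 4W without overlap (-0.29 ± 0.12, adjusted p = 0.142). The remaining called probe, a dim one of H2ac18 (ILMN_1228849) detected in 2 of 4 RES 4W arrays, had 4.78, 5.07, 4.77 and 4.60 in RES 4W, and 5.52, 5.19 and 5.83 in CON 4W (-0.71 ± 0.20, adjusted p = 0.0496). The 2 other probes of H2ac18 were not called, although their RES 4W arrays also lay below all CON 4W arrays. Of these 3 calls, H4c8 was lost in 13 and H2bc7 in 9 of the 15 fits with 1 array left out, and that of H2ac18 in 11.

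The fourth comparison followed the restricted mice between the ages, and so also between 1 and 4 weeks of restriction. In RES 4W against RES 1W, 19 of 56 replication-dependent probes were called (33.9%, against 11.6% of all tested probes), and all 19 were higher in RES 4W (6.29% of all probes were). In 24 of the 56 every RES 4W array was above every RES 1W array (7.33% of all probes), and in none below (6.99%). H2B led this group with 9 of its 13 probes, of 7 genes, followed by H4 with 5 of 13, H2A with 4 of 19, H1 with 1 of 3 and H3 with 0 of 8. Without RES 4W replicate 1, 21 were called, 18 higher and 3 lower, against 24.1% of all tested probes (12.6% higher and 11.5% lower). With all arrays, none of the 10 H2A probes that separated CON 1W from the other groups was called, and they changed by -0.22 to 0.16. Without RES 4W replicate 1, the 12 H2A probes of chromosome 13 changed by -0.46 to 0.34, with 1 called higher and 1 lower. These 12 again include the bright probes of H2ac10 and H2ac13.

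H2bc9 had levels of 10.98, 11.54, 11.64 and 11.53 in RES 4W, and 10.50, 10.52, 10.49 and 10.47 in RES 1W, a change of 0.93 ± 0.13 (adjusted p = 0.000738 in limma). H2bc6 had 11.81, 12.39, 12.48 and 12.33 in RES 4W, and 11.52, 11.35, 11.38 and 11.34 in RES 1W by its bright probe, 1.81-fold higher in RES 4W (0.85 ± 0.13, adjusted p = 0.00126). In both genes every RES 4W array was above every RES 1W array, with replicate 1 the lowest of RES 4W. H2bc11 read 11.40, 11.95, 11.89 and 11.83 in RES 4W, and 11.15, 10.96, 11.00 and 10.98 in RES 1W (0.74 ± 0.12, adjusted p = 0.00141), and H2bc7 changed by 0.87 ± 0.15 (adjusted p = 0.00235). H2bc14 read 10.48, 10.64, 10.78 and 10.65 in RES 4W, and 10.19, 10.08, 10.04 and 10.04 in RES 1W (0.55 ± 0.10, adjusted p = 0.00324). Probes of 1 gene differed in size: the second called probe of H2bc6 (ILMN_1252995) changed by 0.48 ± 0.10, and its other, dim probe (ILMN_2676243) by -0.09 ± 0.17 without a call. For H2bc12 the bright probe changed by 0.31 ± 0.09 and the dimmer one by 0.93 ± 0.16, and the call of the bright probe was lost in 8 of the 15 fits with 1 array left out.

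**Figure D4:**
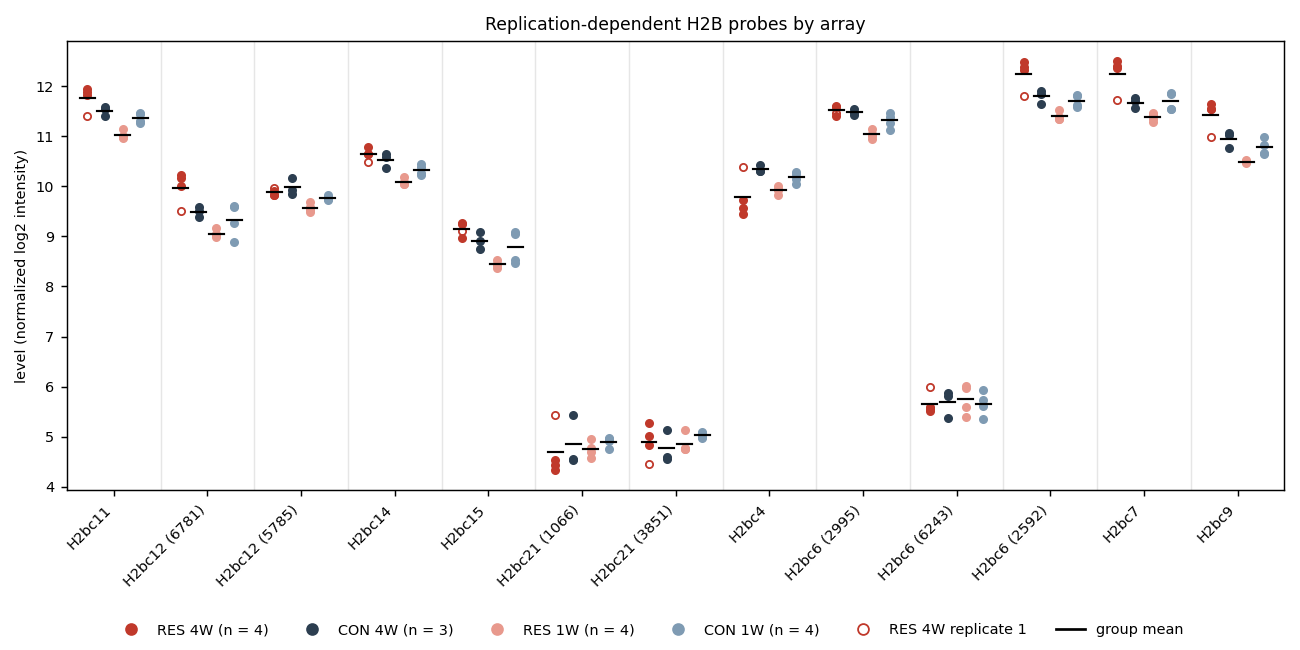
Normalized log2 level (y axis) of the 13 tested replication-dependent H2B probes in each array (points), with group means (lines). In H2bc7, H2bc9 and the brightest probe of H2bc6, 3 RES 4W arrays lie above all others while RES 4W replicate 1 (open circle) lies among the CON 4W arrays or next to them.

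Among the H4 genes, H4c1 read 10.04, 9.92, 10.04 and 10.03 in RES 4W, and 9.31, 9.46, 9.16 and 9.14 in RES 1W (0.74 ± 0.13, adjusted p = 0.00263 in limma). H4c18 read 6.77, 6.81, 6.72 and 6.69 in RES 4W, and 5.69, 6.13, 5.96 and 5.59 in RES 1W by its brighter probe (0.90 ± 0.16, adjusted p = 0.00284). In both, RES 4W lay above RES 1W with no overlap, and replicate 1 did not stand apart. H4c11 and H4c9 changed by 0.77 ± 0.14 and 0.73 ± 0.15. The dim H4c3 probe was detected in no RES 1W array and was at least 1.14-fold higher in RES 4W (adjusted p = 0.0336), a bound set by the lowest detected level. The call of H4c3 was lost in 6 of the 15 fits with 1 array left out. On chromosome 3, the H2A gene H2ac19 read 11.16, 11.81, 11.79 and 11.83 in RES 4W, and 10.73, 10.84, 10.72 and 10.64 in RES 1W and was 1.88-fold higher in RES 4W (0.91 ± 0.15, adjusted p = 0.00231). The other called probes were the dimmer one of H2ac20 (0.72), the bright ones of H2ac18 (0.40) and H2ac10 (0.35), and the dimmer one of H1f2 (0.40). Other probes of these H2A genes were not called. Mean levels in RES 4W and RES 1W were 11.12 and 11.21 for the bright probe of H2ac20, and 6.37 and 6.58 for the dimmer one of H2ac10. For H2ac18 they were 9.21 and 8.97 (ILMN_2751948), and 4.81 and 5.26 (ILMN_1228849). The calls of H1f2, H2ac18 and H2ac10 were lost in 7, 4 and 3 of the 15 such fits, that of H1f2 also without RES 4W replicate 1 (adjusted p = 0.0516).

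Few replacement variant probes were called. Their mean level over the 14 probes lay between 8.02 and 8.16 in the RES 4W arrays, 7.96 and 8.04 in CON 4W, 8.02 and 8.13 in RES 1W and 8.04 and 8.23 in CON 1W. The 56 replication-dependent probes had array means of 7.81 to 7.91 in RES 4W, 7.74 to 8.01 in CON 4W, 7.47 to 7.72 in RES 1W and 7.86 to 8.11 in CON 1W, so that RES 1W lay below the other groups without overlap. The replacement means of RES 1W overlapped those of every other group. In bulk kidney RNA, fewer cells of a type and less RNA per cell cannot be told apart.

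H3.3, which replaces canonical H3 outside S phase, is encoded by H3f3a and H3f3b. H3f3a had levels of 11.62, 11.79, 11.89 and 11.85 in RES 4W, 11.54, 11.71 and 11.51 in CON 4W, 11.78, 11.91, 11.71 and 11.85 in RES 1W, and 11.73, 11.83, 11.89 and 11.93 in CON 1W. H3f3b had 10.35, 9.14, 9.43 and 9.56 in RES 4W, 10.06, 10.45 and 10.15 in CON 4W, 10.31, 10.34, 10.44 and 10.22 in RES 1W, and 10.02, 10.06, 10.24 and 9.97 in CON 1W. H3f3b was the only replacement probe called, and only in RES 4W against RES 1W, where it was 1.63-fold lower (-0.71 ± 0.19, adjusted p = 0.0239 in limma, 1 of 14 probes). The 3 low RES 4W arrays lay below all 12 other arrays, and replicate 1 lay within the range of CON 4W. The call was lost in 5 of the 15 fits with 1 array left out. Without replicate 1 the change was -0.95 ± 0.12 (adjusted p = 5.7e-05) and also passed against CON 4W (-0.84 ± 0.13, adjusted p = 0.000285). H3f3a was not called in any comparison, and its largest change was -0.26 ± 0.10 in CON 4W against CON 1W (adjusted p = 0.208), where the groups did not overlap.

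H2A.Z, a variant found at promoters, is encoded by H2az1 and H2az2. H2az1 had levels of 10.22, 10.36, 10.49 and 10.66 in RES 4W, 9.69, 10.25 and 10.27 in CON 4W, 9.98, 10.30, 10.30 and 10.26 in RES 1W, and 10.22, 10.40, 10.56 and 10.27 in CON 1W, with overlap in all comparisons. H2az2 had 9.11, 9.41, 9.38 and 9.39 in RES 4W, 9.01, 9.08 and 9.01 in CON 4W, 9.21, 9.49, 9.21 and 9.37 in RES 1W, and 8.89, 9.13, 9.13 and 9.48 in CON 1W, and its RES 4W arrays were all above CON 4W (0.29 ± 0.13, adjusted p = 0.172 in limma). H2ax, whose protein is phosphorylated at DNA breaks, read 7.46, 7.11, 7.15 and 7.29 in RES 4W, 7.38, 7.34 and 7.40 in CON 4W, 7.64, 7.16, 7.29 and 7.30 in RES 1W, and 7.93, 7.57, 7.79 and 7.64 in CON 1W. Its CON 4W arrays lay below all CON 1W arrays, but neither -0.36 ± 0.13 with age nor -0.38 ± 0.12 in RES 1W passed the adjustment (adjusted p = 0.162 and 0.105). H2aj, which encodes H2A.J, read 7.34, 7.63, 7.63 and 7.64 in RES 4W, 7.33, 7.14 and 7.47 in CON 4W, 7.39, 7.48, 7.36 and 7.31 in RES 1W, and 7.43, 7.57, 7.63 and 7.67 in CON 1W by its brightest of 3 probes, and RES 4W replicate 1 was the lowest of its group.

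MacroH2A, a large variant known from silent chromatin, was read by 3 probes of Macroh2a1 and 1 of Macroh2a2. The brightest Macroh2a1 probe had 10.64, 10.67, 10.73 and 10.72 in RES 4W, 10.62, 10.84 and 10.75 in CON 4W, 10.76, 10.78, 10.79 and 10.90 in RES 1W, and 10.76, 10.77, 10.91 and 10.91 in CON 1W. Its arrays lay within a narrow range in all groups, and the largest change was -0.12 ± 0.09 in RES 4W against RES 1W. A dimmer Macroh2a1 probe (ILMN_1247199) read 8.58, 9.32, 9.26 and 9.27 in RES 4W, and 8.62, 8.64, 8.77 and 8.54 in RES 1W (0.46 ± 0.15, adjusted p = 0.0525 in limma), and 0.64 ± 0.11 without replicate 1 (adjusted p = 0.000609). Macroh2a2 was near the detection limit, at 4.39, 5.37, 5.12 and 5.13 in RES 4W, 4.62, 4.72 and 4.54 in CON 4W, 5.11, 4.59, 4.76 and 4.59 in RES 1W, and 4.53, 5.10, 5.05 and 4.86 in CON 1W, and was detected in 6 arrays. The linker histone gene H1f10 was detected in 3 arrays at 4.92, 4.57, 4.46 and 4.72 in RES 4W, 4.81, 4.65 and 4.54 in CON 4W, 4.44, 4.68, 5.06 and 4.98 in RES 1W, and 4.94, 4.58, 4.77 and 4.78 in CON 1W. H2al2a, a short H2A variant known from testis, was detected in 5 arrays at 4.98, 4.59, 5.00 and 4.83 in RES 4W, 4.63, 4.55 and 4.43 in CON 4W, 4.82, 4.45, 4.82 and 4.65 in RES 1W, and 4.54, 4.79, 4.63 and 5.05 in CON 1W. It was counted among the replacement variants by its older symbol, H2afb1, and not among the testis-type genes. None of these 3 dim probes passed any comparison with all arrays. Without RES 4W replicate 1, 5 replacement probes were called in RES 4W against CON 4W, 4 higher and 1 lower, where 24.1% of all tested probes were called.

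**Figure D5:**
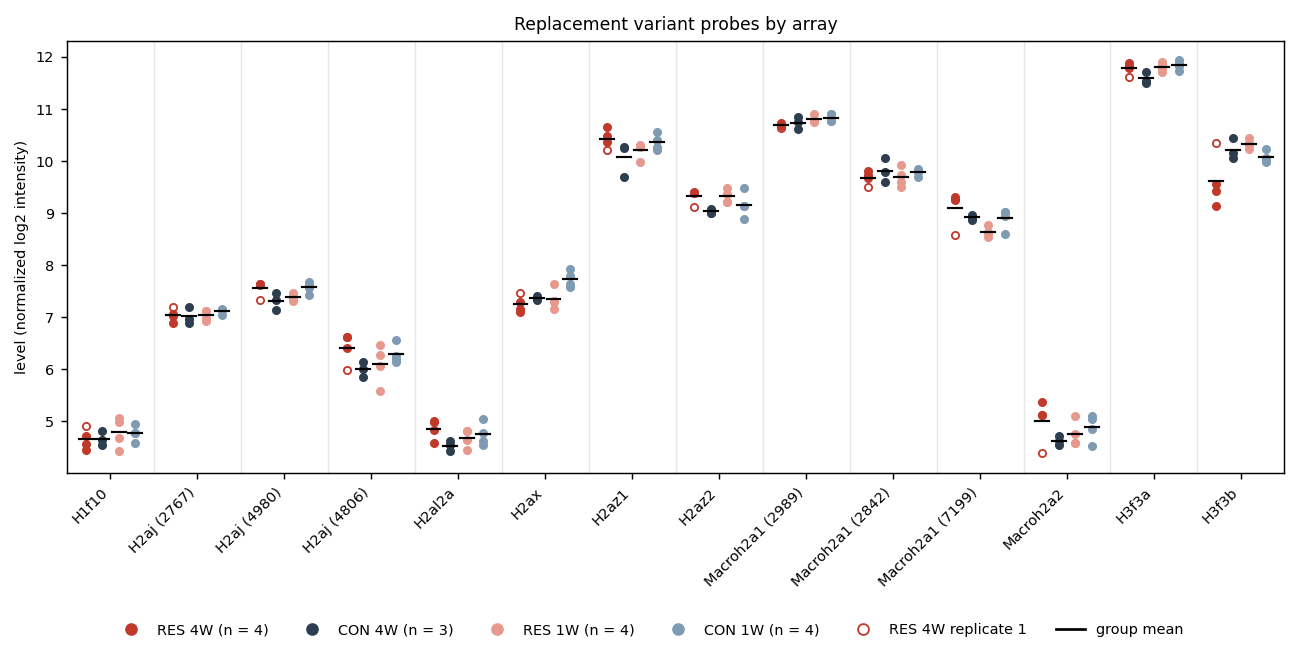
Normalized log2 level (y axis) of the 14 tested replacement variant probes in each array (points), with group means (lines). The group means of most probes lie within 0.4 of each other, while 3 RES 4W arrays of H3f3b lie below all other arrays and RES 4W replicate 1 (open circle) does not.

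Genes that act on histones were followed as lists. Of 29 genes of DNA replication in S phase, 21 were tested, and 7 were lower in CON 4W (1.79% of all tested probes were) and 6 in RES 1W (1.38%) against CON 1W, with none higher. With age, the smallest adjusted p belonged to Mcm5, a subunit of the replicative helicase (-1.46 ± 0.16, adjusted p = 7e-05 in limma), Rrm2, which makes deoxynucleotides (-1.23 ± 0.15, adjusted p = 0.00023), Tk1 (-0.75 ± 0.15, adjusted p = 0.0102) and Mcm4 (-0.50 ± 0.11, adjusted p = 0.0203). In RES 1W they were Rrm2 (-1.02 ± 0.14, adjusted p = 0.000821), Tk1 (-0.91 ± 0.14, adjusted p = 0.00143), Uhrf1 (-1.02 ± 0.20, adjusted p = 0.00855) and Mcm5 (-0.64 ± 0.15, adjusted p = 0.0273). The median over the 21 genes was -0.37 with age and -0.26 in RES 1W, and their summed level on the linear scale was 2004 to 2108 in CON 4W, 2202 to 2486 in RES 1W and 2610 to 3006 in CON 1W. In RES 4W it was 1933 to 2278, and 1 of the 21 genes was lower than in CON 4W, the S phase regulator E2f1 (-0.45 ± 0.11, adjusted p = 0.0268). Without RES 4W replicate 1, 3 of the 21 were lower and 1 higher (11.3% and 12.8% of all tested probes were). These genes moved in the same comparisons as the H2A probes of chromosome 13, and whether one accounts for the other was not tested.

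The chaperones that carry new histones to replicating DNA were called in few cases. Of 13 tested, Chaf1b, a subunit of chromatin assembly factor 1, was lower in CON 4W (-1.10 ± 0.15, adjusted p = 0.000431 in limma) and in RES 1W (-0.56 ± 0.14, adjusted p = 0.0349), and the other 12 were not called. Against CON 1W, 1.79% of all tested probes were lower in CON 4W and 1.38% in RES 1W. After 4 weeks of restriction, Rbbp7 was higher than in CON 4W (1.16 ± 0.31, adjusted p = 0.0399) and Rbbp4 lower (-0.85 ± 0.23, adjusted p = 0.0409); both encode histone-binding proteins. In RES 4W against CON 4W, 3.63% of all tested probes were higher and 2.86% lower. Without RES 4W replicate 1, Rbbp7 and Rbbp4 kept their calls and Supt16 was also higher. The shares of all tested probes were then 12.8% higher and 11.3% lower. Among 13 genes for variants and their chaperones, Cenpa, the centromeric H3 variant, was lower in CON 4W (-1.16 ± 0.13, adjusted p = 8.39e-05) and in RES 1W (-0.77 ± 0.12, adjusted p = 0.00182), and none other was called in either. In RES 4W against RES 1W, Anp32e, which removes H2A.Z, was lower (-0.55 ± 0.14, adjusted p = 0.018) and Znhit1, a subunit of a complex that deposits it, was higher (0.70 ± 0.16, adjusted p = 0.0131). In that comparison 6.29% of all tested probes were higher and 5.31% lower. Anp32e and Znhit1 kept their calls without RES 4W replicate 1. Against CON 4W, 4 of the 13 were then higher (12.8% of all tested probes were) and 1 lower (11.3%). With all arrays none of the 13 was called against CON 4W. Of 12 tested genes of histone mRNA processing, none was called with all arrays in the comparisons against CON 1W or CON 4W, and Cstf2 was lower in RES 4W against CON 4W without replicate 1 (adjusted p = 0.000154). Their summed level was 5148 to 5579 in RES 4W, 5595 to 5665 in CON 4W, 5200 to 5510 in RES 1W and 5214 to 5928 in CON 1W. In RES 4W against RES 1W, 2 of the 12 were lower, Cpsf2 and Upf1 (5.31% of all tested probes were lower), and without replicate 1 3 were lower and 1 higher (11.5% and 12.6%). Slbp, which binds the stem-loop of histone mRNAs, was not tested, nor were Lsm11 and Npat.

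Markers of other cell types were read beside the H2A result. The 5 tested macrophage markers of 7 had summed levels of 473 to 607 in CON 4W, 397 to 423 in RES 1W and 488 to 521 in CON 1W, so that RES 1W lay below CON 1W without overlap, and none of the 5 was called in either comparison. The 7 endothelial markers summed to 6998 to 7583 in CON 4W, 8075 to 9560 in RES 1W and 8140 to 9168 in CON 1W, with Tek and Egfl7 lower in CON 4W. The 6 tested of 7 fibroblast and pericyte markers summed to 1397 to 1408 in CON 4W, 1515 to 2186 in RES 1W and 1525 to 1820 in CON 1W, with Col1a1 lower in CON 4W. In CON 4W against CON 1W, 1.79% of all tested probes were lower. The sums of endothelial and of fibroblast markers in CON 4W lay below those in CON 1W without overlap, while those of RES 1W overlapped CON 1W. The 4 tested of 8 lymphocyte markers summed to 123 to 153 in CON 4W, 108 to 131 in RES 1W and 119 to 151 in CON 1W, and Cd79a, Ms4a1 and Cd2 were among those not tested. The 3 tested of 6 erythroid markers summed to 24106 to 26854 in CON 4W, 28735 to 32007 in RES 1W and 27595 to 30335 in CON 1W, and the 3 tested of 5 urothelial markers to 165 to 168, 151 to 177 and 169 to 218, with none called. Both sums were also below CON 1W without overlap in CON 4W, and overlapped CON 1W in RES 1W. In RES 4W against RES 1W, where the H2B probes were higher, the macrophage genes C1qb, C1qc and Lyz2 were higher as well, by 0.74 ± 0.11, 0.83 ± 0.14 and 0.69 ± 0.17, at summed levels of 538 to 704 in RES 4W and 397 to 423 in RES 1W (6.29% of all tested probes were higher). Without RES 4W replicate 1, 4 of the 5 macrophage markers were higher than in RES 1W and 3 were higher than in CON 4W, where none was called with all arrays. The shares of all tested probes that were then higher were 12.6% against RES 1W and 12.8% against CON 4W. The part of these cell types in the histone results was not tested.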

How the data were processed

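Kidney RNA was measured on 15 Illumina MouseWG-6 arrays, all assigned to a group from their labels. The authors exported the deposited intensities from GenomeStudio 1.0.2. They are already background-subtracted (34.9% are at or below 0) and quantile-normalized. The deposited detection p-values compare each intensity with the negative control beads of its array, and the deposited log2 values are the authors' log2 of the same intensities, missing in 52.2% of cases. The build and annotation used by the authors are not given in the sources used here.

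The neqc function of limma 3.58.1, run in R 4.3.3 (normexp background correction, offset 16, quantile normalization), gave the levels used here, a further correction of corrected values. Testing was limited to probes detected at p under 0.05 in 3 arrays or more. Linear models on the 4 group means were fitted to all tested probes, and p-values adjusted over them (Benjamini-Hochberg, called under 0.05). Of the tested probes, 16351 had 1 gene symbol, 7 several and 2669 none. Symbols came from the platform annotation, and older symbols from RefSeq synonyms. For each gene the brightest of its tested probes was used, with the others described beside it. Every histone gene could be named. Values per array are given for the replacement variants and for up to 8 replication-dependent genes per comparison with the smallest adjusted p, and up to 4 genes are named per other list. The number of arrays limits the precision. The code was checked on simulated data.

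The histone genes, the other lists and the tests were chosen with earlier results of these data known. Alternatives covered the offset, no further correction, median scaling, the authors' processed log2 values, filters on dim probes, array weights, other variance priors, the mean of a gene's probes, only the groups compared, the methods' own tests, a replicate block and each array left out.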

Additional observations from a re-analysis of the deposited data

Results flagged for a closer look

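In 14 of 210 groups of 4 arrays, the highest or lowest array lay further from the others than Dixon's 95% criterion allows, a criterion that by chance is met in about 1 of 20 groups. RES 4W replicate 1 was that array in 6 of the 14. It was the lowest of its group for H2aj (ILMN_2524980), at 7.335 against 7.627 to 7.645 in the others, for H2az2 at 9.115 against 9.381 to 9.407, for Macroh2a1 (ILMN_1247199) at 8.584 against 9.255 to 9.318, for H2ac19 at 11.16 against 11.78 to 11.83 and for H2bc9 at 10.98 against 11.53 to 11.64. It was the highest for H2ac20 (ILMN_1218380), at 11.55 against 10.94 to 11.02.

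RES 1W replicate 2 was the highest of its group for H2ac24, at 10.1 against 9.124 to 9.276, and for H2ac7 (ILMN_1226839), at 9.786 against 9.123 to 9.185. RES 1W replicate 1 was the lowest for H2az1 (9.981 against 10.26 to 10.3) and the highest for the dim probes of H2bc21 (ILMN_1253851, 5.139 against 4.756 to 4.777) and H3c10 (ILMN_2698519, 4.978 against 4.461 to 4.517). RES 1W replicate 4 was the lowest for H2ac18 (ILMN_2751948, 8.841 against 9.008 to 9.014). CON 1W replicate 4 was the lowest for H1f2 (ILMN_2774537, 11.97 against 12.21 to 12.24), and RES 4W replicate 2 for H4c1 (9.917 against 10.03 to 10.04).

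The effect of restriction differed between 4 weeks and 1 week, by the interaction term of limma, for 7 H2A probes of chromosome 13. Age and length of restriction cannot be told apart in this difference. The difference, at 4 weeks minus at 1 week, was 1.163 for H2ac11 (adjusted p = 0.0355), 1.44 for the brighter and 1.599 for the dimmer probe of H2ac12 (adjusted p = 0.0496 and 0.00542), 1.68 for H2ac15 (adjusted p = 0.0281), 1.261 for H2ac24 (adjusted p = 0.0464), and 1.13 for the brighter and 1.738 for the dimmer probe of H2ac7 (adjusted p = 0.0402 and 0.0281). The RES 4W and CON 4W arrays overlapped for all 7.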

How the results depend on the processing

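Replication-dependent probes called numbered 13 between the ages under free drinking, 11 after a week of restriction and 19 in RES 4W against RES 1W. These counts moved by more than 1.5 times under 1 alternative, the methods' t-test, to 3, 2 and 10. Fits with 1 array left out, set apart here, gave 9 to 16, 9 to 12 and 14 to 21. The count in RES 4W against CON 4W (3) was 0 with log2(intensity + 16), with only the groups compared, with the authors' processed values, with the methods' ANOVA and with the methods' t-test, 1 without a filter, 5 with an offset of 50 or a stricter filter, 6 with a trended and robust prior, 15 with array weights, and 0 to 13 with 1 array left out, the highest without RES 4W replicate 1. The count for the difference between the restriction effects (7) was 3 with log2(intensity + 16), 2 with the authors' processed values, 1 without a filter and with the methods' ANOVA, 12 with an offset of 50, 11 with a stricter filter, 13 with a trended and robust prior, 19 with array weights, and 1 to 21 with 1 array left out. Replacement probes called in RES 4W against CON 4W (0) numbered 7 with array weights and 0 to 5 with 1 array left out, and those for the difference between the restriction effects (0) 4 with array weights and 0 to 4. In RES 4W against RES 1W (1) they numbered 0 without a filter, with only the groups compared, with the methods' ANOVA and with the methods' t-test. They numbered 2 with an offset of 50, a stricter filter, or a trended and robust prior, 4 with array weights and 0 to 3 with 1 array left out. After a week of restriction (0) they numbered 0 to 1, the 1 without RES 1W replicate 1. No called change took the opposite sign. Of 113 fold changes and medians followed, 13 did so under some alternative, none of them called and none over 0.12 in size on the log2 scale. Among these were the replication-dependent median in RES 4W against CON 4W (-0.03, and -0.05 to 0.10 over the alternatives) and the brightest Macroh2a1 probe in RES 4W against RES 1W (-0.12, and 0.11 as the mean of the gene's probes). Causes of these shifts were not tested.

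Replicate numbers did not pair the arrays: the correlations of same-numbered arrays ran from -0.118 to 0.186 over 21 pairs, and 3 of 15 arrays were nearest to their own number. With the replicate block the replication-dependent counts were 11 for age under free drinking, 12 for 1 week and 0 for 4 weeks of restriction. They were 19 in RES 4W against RES 1W and 3 for the difference between the restriction effects. The replacement counts were 0, 0, 0, 2 and 0 in the same order.

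The array numbers of 3 and 4 per group limit all counts, and the exact permutation test cannot go below 0.0286. Probes near the detection limit, such as H2ac11, H3c4 and H4c3, understate a change. Paralogs are near-identical, and the 2 probes of H2ac10 and of H2ac13 disagree; which H2A transcripts fell was not tested. All comparisons against CON 1W rest on the same 4 arrays.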
